A study of Mus musculus with 12 samples.

Results

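The genes of the interferon response and of MHC class I antigen presentation were followed across 4 groups of neurons made from mouse D3 embryonic stem cells. The set was a list of 42 genes grouped by function. A gene was measured where a probe set was annotated to its symbol alone, and where a symbol had several such probe sets the one with the highest mean over the 12 arrays was used. By that rule 37 of the 42 genes were measured, of 19938 genes in all. A further 5, Isg15, Ifi44, Gbp2, H2-K1 and H2-D1, had no probe set of their own symbol alone and were not analysed here. After the lowest 25% of genes by mean level were left out, 32 members were among the 14953 genes tested. Dhx58, Ifit2, Mx1, Mx2 and Rsad2 fell below that level and are called dim.

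Interferons are secreted proteins that warn cells of infection. Type I interferons bind a receptor built from IFNAR1 and IFNAR2, whose kinases activate a complex holding STAT2 and IRF9 that binds the interferon-stimulated response element (ISRE) in promoters. Genes induced by interferon gamma often carry the gamma-activated site (GAS). The genes switched on include cytosolic RNA sensors, antiviral effectors, and the proteasome subunits, peptide transporters and light chain that load MHC class I molecules. Pluripotent cells are known for a weak response to interferon and for expressing some effectors, the Ifitm genes among them, without it, and neurons are known for low MHC class I.

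PRMT1 and PRMT8 are arginine methyltransferases, PRMT1 found in most cells and PRMT8 mainly in brain. All samples were total RNA of neurons collected at day 16, after D3 cells had been aggregated into embryoid bodies without LIF. The labels used here name no further treatment. The groups were the unmodified line (D3), the same line carrying a scrambled sequence (siSCR), and knockdown lines for PRMT1 (siPRMT1) and PRMT8 (siPRMT8), each with 3 arrays. Each group is 1 line, and the labels used here do not say whether a line is 1 clone or a pool. The arrays are labelled biological replicates without saying that they came from separate differentiations, so the p-values measure the spread between these samples only. In bulk RNA, fewer cells of a type and less RNA per cell cannot be told apart.

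The log2 level of Prmt1 was 7.72, 7.95 and 7.59 in siPRMT1 against 8.84, 8.74 and 8.86 in siSCR, and that of Prmt8 was 6.44, 6.17 and 6.44 in siPRMT8 against 6.60, 7.18 and 7.10 in siSCR. Prmt8 did not separate the knockdowns: it was at 6.35, 6.89 and 6.67 in siPRMT1, overlapping siPRMT8 (difference 0.29, SE 0.16, limma adjusted p 0.489) and -0.75 against D3 (adjusted p 0.00488). In siSCR against D3 the difference was -0.43 without overlap (adjusted p 0.388). Prmt1 was higher in siPRMT8 than in siSCR, by 0.43 (SE 0.09, limma adjusted p 0.00625). The 18 neuronal markers averaged 9.35 to 9.46 (log2) in D3, 8.44, 9.41 and 9.35 in the siSCR arrays, and 8.16 to 8.47 in the knockdown arrays. Replicate 1 of siSCR therefore stood near the knockdowns on these markers, and on the first principal component, where it lay at 0.105, the other control arrays lay between -26.2 and -21.6 and the knockdowns between 13.6 and 25.7. Replicate 2 of siPRMT1 stood apart on the second component, at 17.6 against -20.1 and -10.3. Of the markers of immune cells, 8 of 16 myeloid and 7 of 10 lymphoid ones were dim, the dim ones including Ptprc, Csf1r, Itgam, Cd3d and Cd79a, with list means of 5.35 to 5.57 and 4.79 to 5.02 over all arrays. Of the 8 myeloid markers above the filter, Cd68, which other cell types also express, fell by 0.87 in siPRMT8 against siSCR (adjusted p 0.0279) and the other 7 did not pass there. Their part in the results was not tested.

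The promoters were read apart from the levels, and neither word searched for was shared by all members. RefSeq promoters (GRCm38.p6, 250 bases before to 50 after the start site) were found for 36 of the 42 members. There were 42 such promoters, some members having several, and in 24 of them the start site was the first base of the gene. They were searched on both strands for the core ISRE word, 2 GAAA words separated by any 2 bases, and for the GAS word, TTC and GAA separated by any 3 bases. The ISRE word was present for 17 of 36 members (47.22%) against 1079 of 27025 genes in the whole table (3.99%), and the GAS word for 12 (33.33%) against 9.55%. By role, the ISRE word was found for 12 of 17 antiviral effectors, both RNA sensors with a promoter, 2 of 8 transcription factors (Irf2 and Stat2) and 1 of 7 MHC class I genes (B2m). Neither receptor gene held it, and both held the GAS word. The stretches around the word follow for members whose levels are described next, with the word in capitals (TTTC is GAAA read on the other strand); Ifit1 and Ifit3, the members with the largest differences from D3, each hold it at 2 places.
Ifit1, chr19:34640773-34640825, plus strand: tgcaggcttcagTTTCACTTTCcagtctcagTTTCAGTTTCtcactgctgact
Ifit3, chr19:34583361-34583428, plus strand: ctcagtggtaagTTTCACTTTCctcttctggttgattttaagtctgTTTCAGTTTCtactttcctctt
Ddx58, chr4:40239802-40239835, minus strand: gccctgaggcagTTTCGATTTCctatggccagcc
Irf2, chr8:46739495-46739525, plus strand: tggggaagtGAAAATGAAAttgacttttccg
Stat2, chr10:128270264-128270297, plus strand: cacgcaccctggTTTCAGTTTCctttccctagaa
B2m, chr2:122147536-122147569, plus strand: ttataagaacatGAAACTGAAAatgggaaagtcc
Positions are counted from the start site of the promoter that holds the word. The stretch of Ifit1 lies at -116 to -64 bases, that of Ifit3 at -168 to -101 and that of Irf2 at -250 to -220. That of Stat2 lies at -234 to -201 and that of B2m at -151 to -118, while that of Ddx58 runs across the start, from -10 to 23. A matching word is a description of the letters and not a shown binding site.

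**Figure D1:**
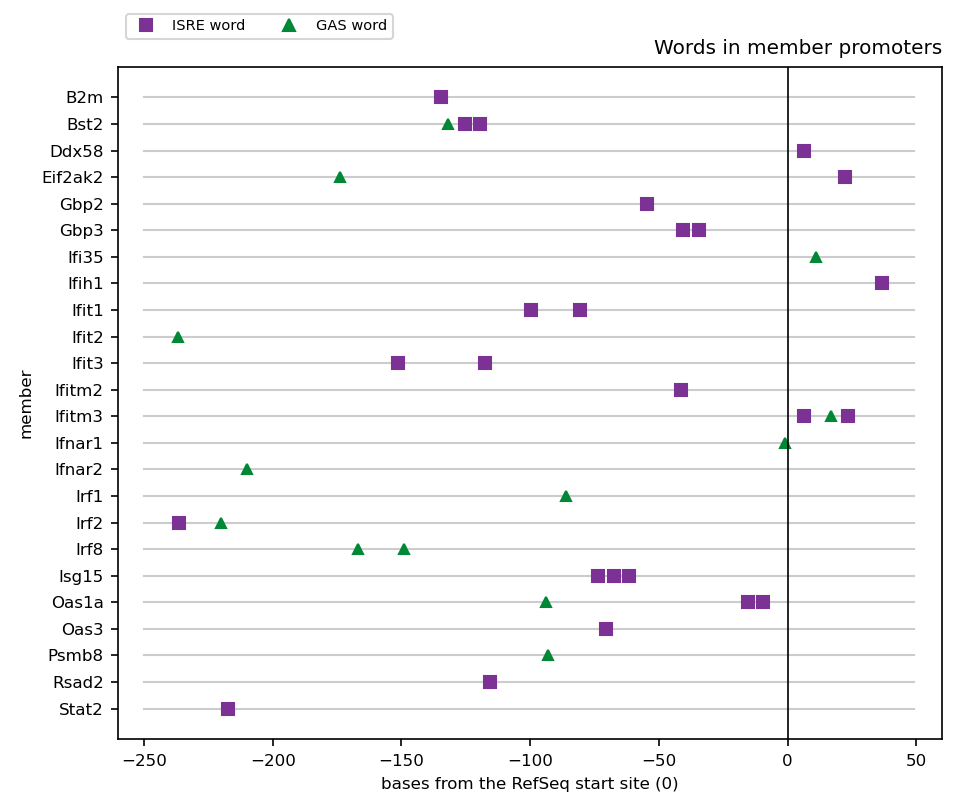
Position of the ISRE word (squares) and the GAS word (triangles) in bases from the RefSeq start site, for the 24 members whose promoter holds either; the grey line is the window searched. ISRE words lie on both sides of the start site.

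The difference between the PRMT1 and the PRMT8 knockdown was the comparison of main interest. None of the 32 tested members passed at an adjusted p of 0.05 (limma, Benjamini-Hochberg over all 14953 genes). An unadjusted p below 0.05 was found for 10 members, beside 1824 of the 14953 genes. Few genes passed anywhere in this comparison: 0.0869% of the tested genes were higher and 0.0669% lower in siPRMT1. The members' median difference was 0.003 on the log2 scale, beside 0.01 over all genes, with 16 members above 0 and 16 below. The groups did not overlap for 7 members (21.9%), beside 15.8% of all genes. Every one of the 32 unadjusted 95% intervals lay inside a 2-fold change and 27 lay inside a 1.5-fold change, the outermost bounds being -0.88 and 0.67. The spread behind each interval was taken from all groups, controls included. For members that varied more within the knockdowns the interval can therefore be too narrow. The SD of Ifitm1 was 0.556 in siPRMT1 and 0.282 in siPRMT8, against 0.105 in siSCR and 0.065 in D3.

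The largest differences towards siPRMT8 were in the response genes. Ifit1, a protein that binds viral RNA lacking a host cap, was at 6.80, 6.44 and 6.95 in siPRMT1 and at 7.12, 7.39 and 7.41 in siPRMT8, with 7.18, 6.92 and 6.86 in siSCR and 6.66, 6.77 and 6.48 in D3. All 3 siPRMT8 arrays were above all siPRMT1 and D3 arrays, and the siSCR arrays overlapped both knockdowns. The difference between the knockdowns was -0.58 (SE 0.14, 95% interval -0.88 to -0.28, 1.49-fold), with an adjusted p of 0.138.

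Usp18, the protease that removes ISG15 from proteins and dampens signalling at the receptor, was at 8.25, 8.91 and 8.71 in siPRMT1 and at 9.03, 9.06 and 9.16 in siPRMT8. It was at 8.45, 8.61 and 8.64 in siSCR and 8.64, 8.93 and 8.61 in D3, so the siPRMT8 arrays were the highest of all 12. The knockdowns differed by -0.46 (SE 0.14, adjusted p 0.243). Ddx58, which encodes the RNA sensor RIG-I, was at 8.68, 8.57 and 8.75 in siPRMT1 and 8.90, 9.09 and 9.04 in siPRMT8, against 8.84, 8.77 and 8.68 in siSCR and 8.62, 8.67 and 8.56 in D3. Its siPRMT8 arrays too were above the other 9. The difference of -0.34 (SE 0.07) had the smallest adjusted p among the members, 0.0941. Irf9, the DNA-binding part of the complex with STAT2, was lower in every siPRMT1 array (7.76, 8.01 and 7.87) than in every siPRMT8 array (8.11, 8.23 and 8.20), by -0.30 (SE 0.09, adjusted p 0.207). Unlike for Usp18 and Ddx58, the D3 arrays (8.04, 8.18 and 7.99) overlapped both knockdowns. The siSCR arrays (7.90, 8.08 and 7.85) overlapped siPRMT1.

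On the other side, Oas3, a sensor of double-stranded RNA that activates RNase L, was at 6.23, 5.87 and 5.98 in siPRMT1 and 5.88, 5.86 and 5.51 in siPRMT8, with 5.84, 5.67 and 5.80 in siSCR and 5.83, 5.85 and 5.86 in D3. The knockdowns overlapped on Oas3, and the difference was 0.28 (SE 0.11, adjusted p 0.342). Tap2, a subunit of the peptide transporter that feeds MHC class I, was at 6.55, 6.79 and 6.67 in siPRMT1 and 6.45, 6.46 and 6.36 in siPRMT8, against 6.73, 6.47 and 6.59 in siSCR and 6.55, 6.51 and 6.53 in D3. The knockdowns did not overlap on Tap2, while siSCR overlapped siPRMT1 and lay just above siPRMT8. The difference was 0.24 (SE 0.08, adjusted p 0.255). Irf1, a transcription factor induced by interferon gamma, was at 7.71, 7.30 and 7.81 in siPRMT1 and 7.29, 7.54 and 7.34 in siPRMT8, a difference of 0.22 (SE 0.12, adjusted p 0.512; 0.05 on its second, dimmer probe set). Replicate 2 of siPRMT1 lay within the siPRMT8 range, and the other siPRMT1 arrays lay above it.

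**Figure D2:**
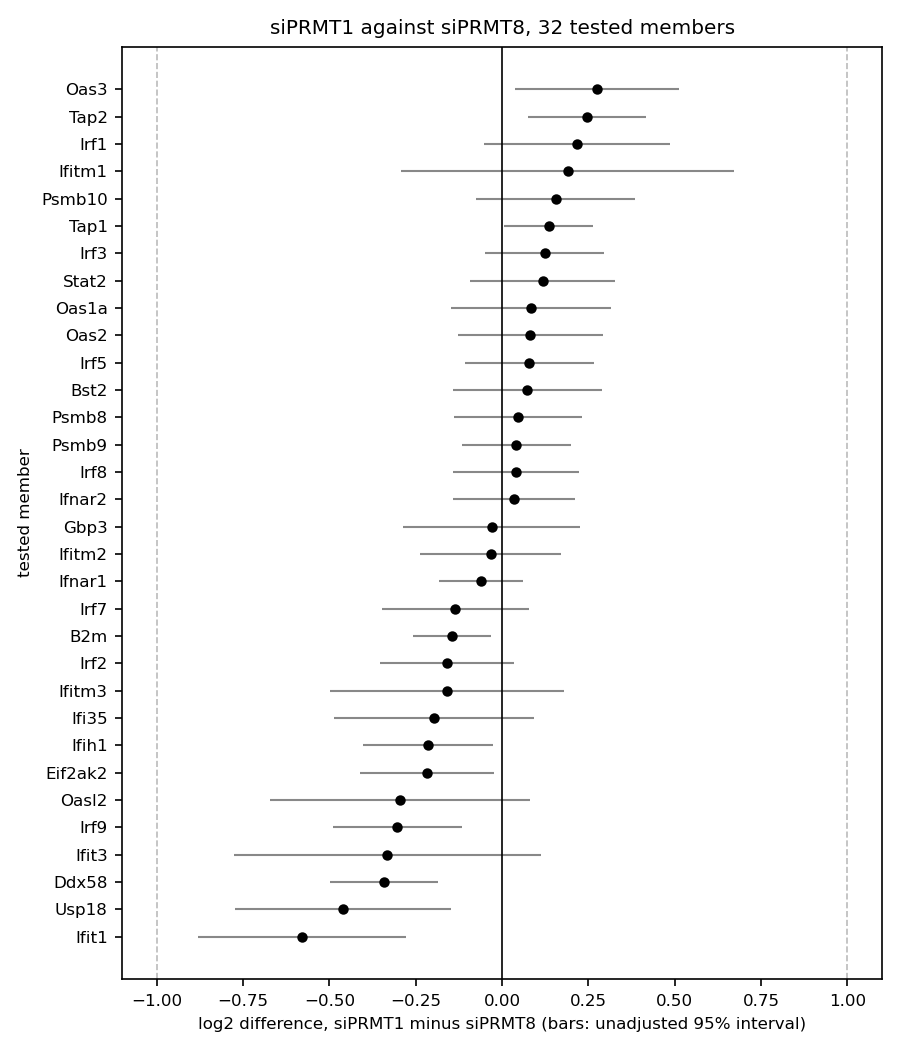
Difference in log2 level, siPRMT1 minus siPRMT8, for each of the 32 tested members (points) with its unadjusted 95% interval (bars); dashed lines mark a 2-fold change. Every interval lies between the dashed lines, from Ifit1 at -0.58 to Oas3 at 0.28. The spread behind the intervals is taken from all groups, controls included.

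By role, the medians of this comparison ran in both directions. Both tested RNA sensors were below 0 (median -0.28), as were 9 of 14 effectors (median -0.10). Of the 6 MHC class I genes 5 were above 0 (median 0.09), the exception being the light chain B2m at -0.14. The 8 transcription factors had a median of 0.06 and the receptor subunits Ifnar1 and Ifnar2 differed by -0.06 and 0.04. The 14 tested members with an ISRE word in their promoter had a median of -0.15 and the 15 without one a median of 0.04. These medians are descriptions of the list and were not tested.

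The count in this comparison depended on replicate 2 of siPRMT1. It had the lowest level of all 12 arrays for members including Ifitm1 (10.33), Ifitm3 (10.64), Oasl2 (6.70) and Stat2 (8.09). For others it had the highest, including Irf3 (7.88), Irf5 (6.29), Irf8 (6.34), Oas1a (6.76), Psmb9 (7.46) and Tap2 (6.79). Its tested members lay a median of -0.14 from their own means, against -0.04 to 0.10 in the other 11 arrays. Without it, 6 members passed. Usp18 (-0.61), Irf9 (-0.37) and Ddx58 (-0.30) were lower in siPRMT1, and Irf1 (0.37), Psmb10 (0.29) and Stat2 (0.25) were higher. The adjusted p of Usp18 was then 0.0264 and that of Ddx58 was 0.0411, in ranges of 0.0106 to 0.671 and 0.0189 to 0.419 over the alternatives tried. In the same fit 3.84% of all tested genes passed as higher and 1.93% as lower, so the members' 6 of 32 stand beside 862 of 14953 genes. The remaining siPRMT1 arrays are then 2, and their spread is taken from all groups.

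**Figure D3:**
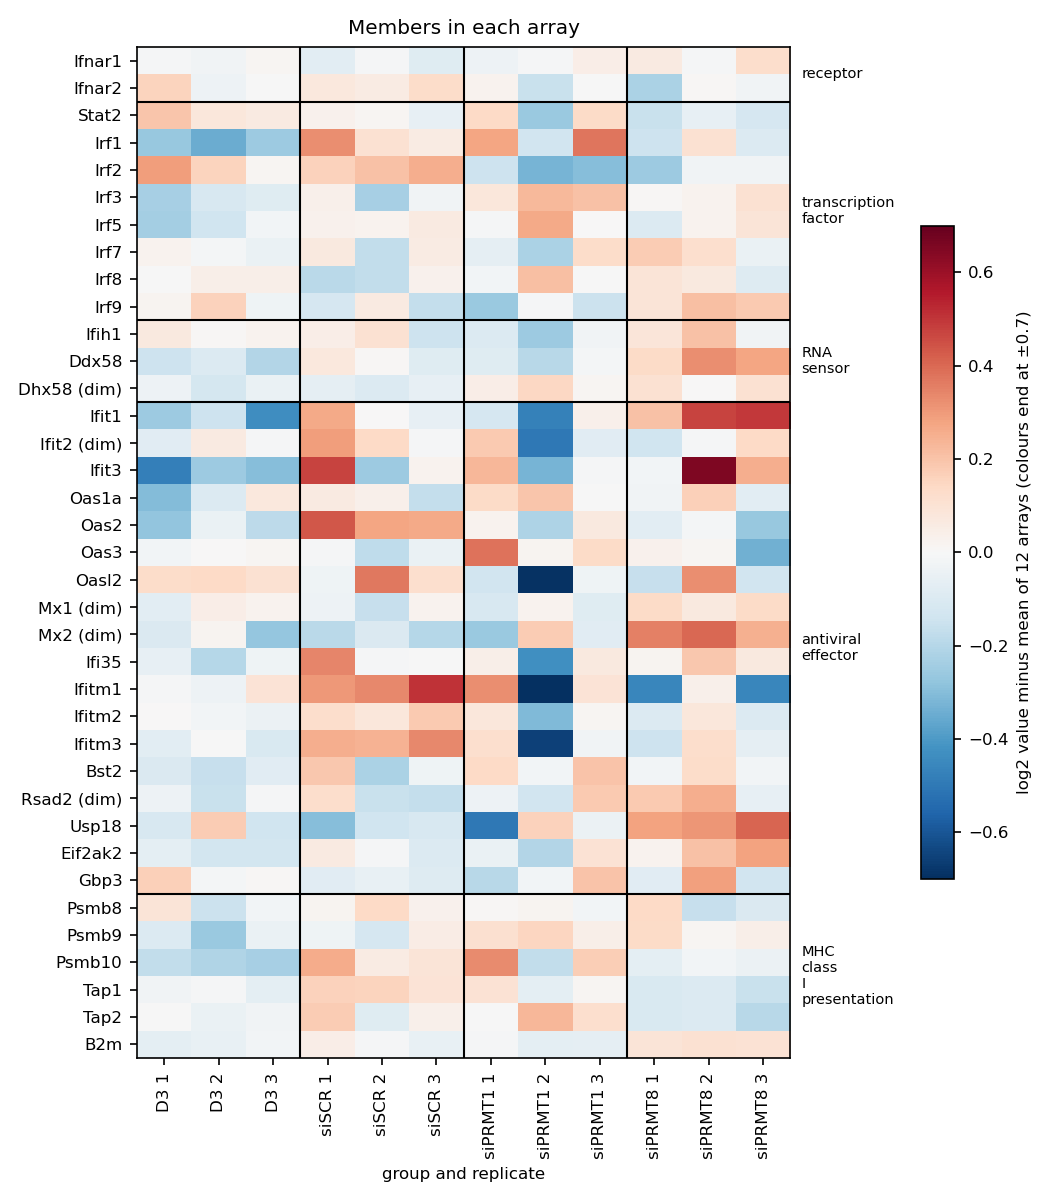
Log2 level of each of the 37 measured members minus its mean over 12 arrays (colour), by array and role. Replicate 2 of siPRMT1 is the column with the darkest blue cells (Ifitm1, Ifitm3, Oasl2), and siPRMT8 is red for Ifit1, Ddx58 and Usp18.

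Against siSCR, 2 members fell in siPRMT1 and none rose, by limma. An unadjusted p below 0.05 was found for 7 members, beside 4981 of the 14953 genes. Over all genes 7.18% rose and 11.6% fell, and the groups did not overlap for 30.0% of genes and for 7 of the 32 members. The member median was -0.04, beside 0.04 over all genes. In siPRMT8, 2 members rose and 4 fell, beside 10.7% and 13.2% of all genes, and 13 members did not overlap, beside 41.8% of genes. The member median there was 0.02, beside 0.01. The 2 comparisons share the siSCR arrays, so their values are given side by side and their likeness is not read.

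Irf2 and Oas2 fell in both knockdowns. Irf2, a transcription factor that competes with IRF1 for the same sites, was at 7.76, 7.80 and 7.85 in siSCR, 7.45, 7.27 and 7.30 in siPRMT1 and 7.34, 7.57 and 7.57 in siPRMT8, with 7.89, 7.75 and 7.61 in D3. Every knockdown array was below every control array. The differences from siSCR were -0.46 in siPRMT1 (SE 0.09, adjusted p 0.00534) and -0.30 in siPRMT8 (SE 0.09, adjusted p 0.0285). The siPRMT8 call was lost without replicate 2 or 3 of siSCR or replicate 1 or 3 of siPRMT8 (adjusted p 0.076, 0.0946, 0.112 and 0.0511) and with replicate number as a block (0.0502), while the siPRMT1 call was kept under all 16 alternatives.

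Oas2, another synthetase of the RNase L pathway, was at 6.89, 6.73 and 6.72 in siSCR, 6.48, 6.24 and 6.52 in siPRMT1 and 6.38, 6.44 and 6.19 in siPRMT8. It was at 6.18, 6.41 and 6.27 in D3, so siSCR was the group that stood above the other 3, and the D3 arrays overlapped both knockdowns. The differences from siSCR were -0.36 (SE 0.10, adjusted p 0.0226) and -0.45 (SE 0.10, adjusted p 0.00769), and from D3 they were 0.13 and 0.05, neither passing. Without replicate 1, 2 or 3 of siSCR or replicate 2 of siPRMT1 the siPRMT1 call was lost (adjusted p 0.0503, 0.055, 0.0529 and 0.05). In all, 6 of 15 alternatives lost it, with the highest adjusted p, 0.0949, in a fit on these 2 groups alone.

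**Figure D4:**
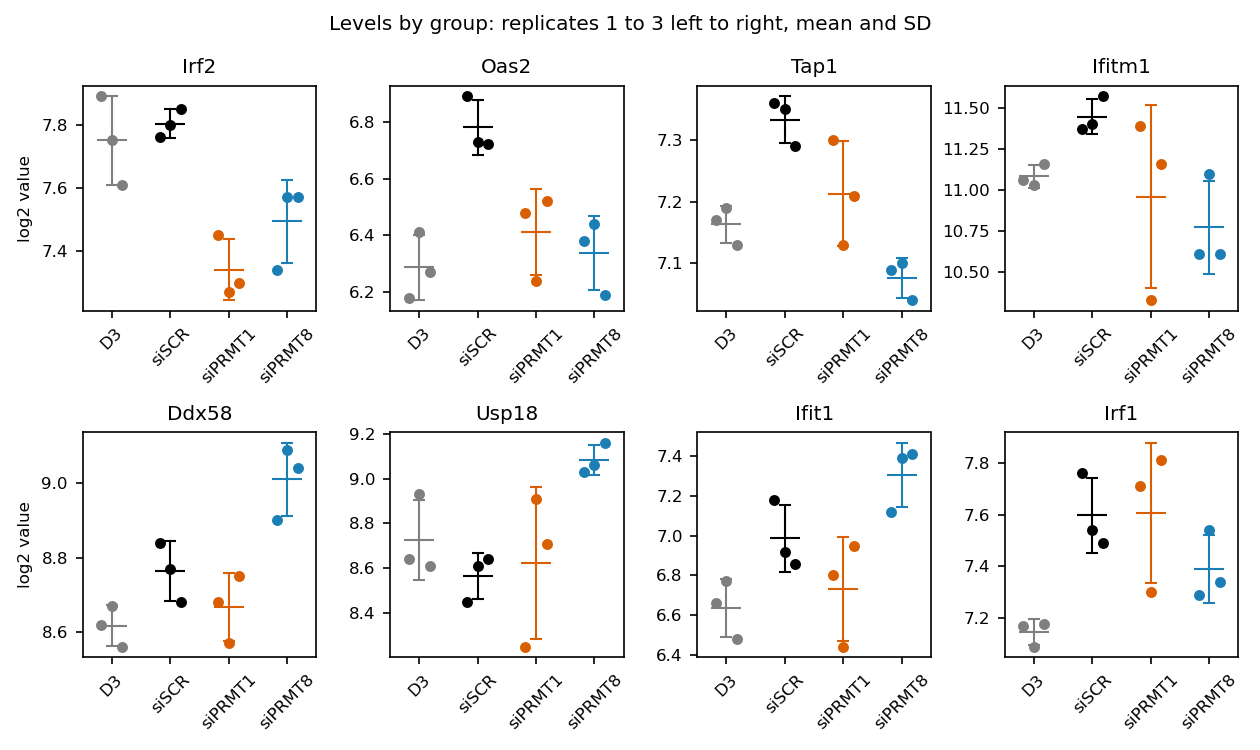
Log2 level of 8 members in each array (points, replicates 1 to 3 from left to right within a group) with the group mean and SD (bars); the vertical axes differ between panels and do not start at 0. Irf2 is lower in all knockdown arrays, Oas2 stands out in siSCR, and Ddx58 and Usp18 are highest in siPRMT8.

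The other 4 calls against siSCR were in siPRMT8. Tap1, the partner of Tap2 in the peptide transporter, was at 7.36, 7.35 and 7.29 in siSCR and at 7.09, 7.10 and 7.04 in siPRMT8, with 7.30, 7.13 and 7.21 in siPRMT1. It fell by 0.26 in siPRMT8 (SE 0.06, adjusted p 0.00992), where it lay below every other array, and the call was kept under all 16 alternatives. Usp18 rose by 0.52 (SE 0.14, adjusted p 0.0227) and Ddx58 by 0.25 (SE 0.07, adjusted p 0.0275). The Usp18 call was lost without any one siSCR array or replicate 1 or 3 of siPRMT8 (adjusted p 0.0513 to 0.085), and the Ddx58 call without replicate 2 or 3 of siSCR or of siPRMT8 (adjusted p 0.0711 to 0.108) and in a fit on these 2 groups alone (0.056).

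Ifitm1, a membrane protein that blocks viral entry, was at 11.37, 11.40 and 11.57 in siSCR and 10.61, 11.10 and 10.61 in siPRMT8, and fell by 0.67 (SE 0.22, adjusted p 0.045). In siPRMT1 it was at 11.39, 10.33 and 11.16, which spans the whole siPRMT8 range. The call was lost without any one siSCR array or without replicate 1 or 3 of siPRMT8 (adjusted p 0.0591 to 0.149), with replicate number as a block (0.0644) and without the filter on dim genes (0.0551). The 3 arrays with the lowest Ifitm1 also had the lowest mean of 12 pluripotency markers, at 8.93 in replicate 2 of siPRMT1 and 9.22 and 9.23 in replicates 1 and 3 of siPRMT8, against 9.37 to 10.05 in the other 9 arrays; the part of such cells in the result was not tested. A second Ifitm1 probe set differed in the same direction, by -0.76. Ifitm2 and Ifitm3, close relatives whose probe sets may share sequence, differed from siSCR by -0.17 and -0.30 in siPRMT8 and by -0.20 and -0.46 in siPRMT1, without passing.

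**Figure D5:**
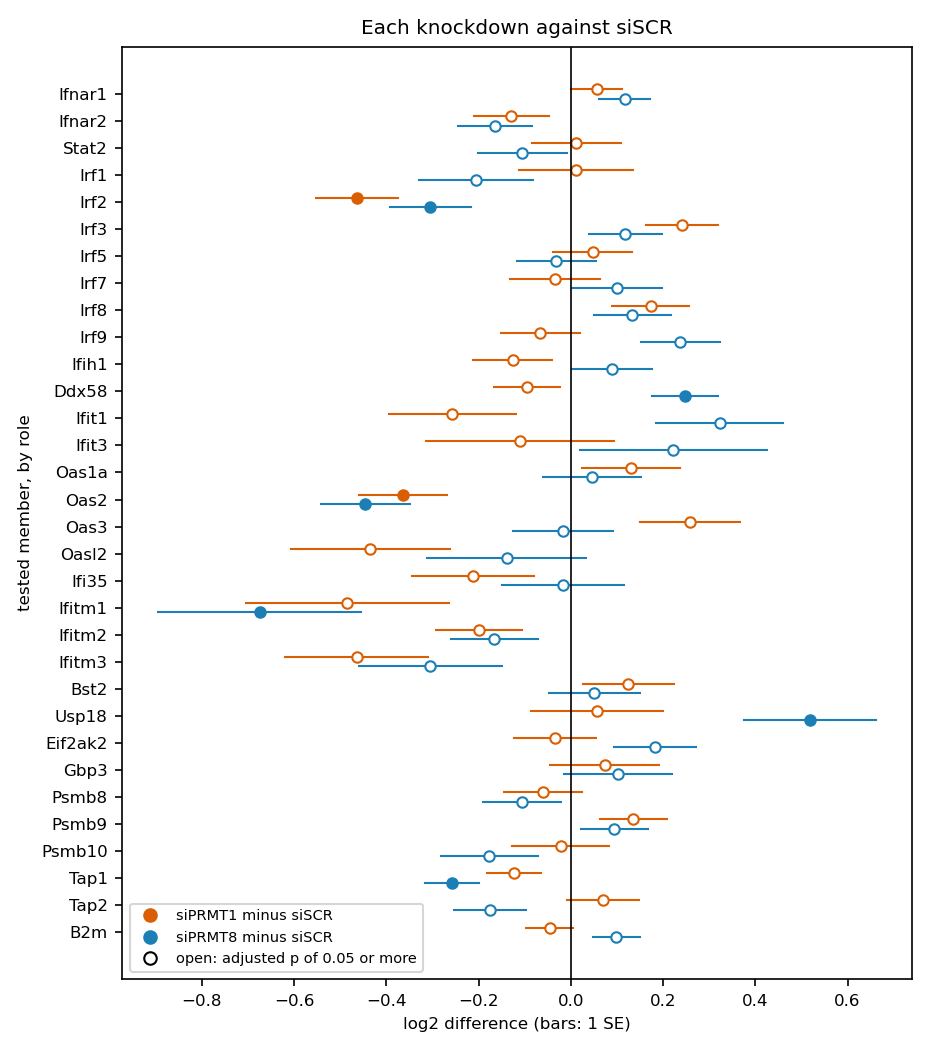
Difference in log2 level from siSCR in siPRMT1 (orange) and siPRMT8 (blue) for the 32 tested members, by role, with 1 SE (bars); filled points passed at an adjusted p below 0.05. Irf2 and Oas2 are filled in both colours, and Ddx58, Usp18, Ifitm1 and Tap1 in blue alone.

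Against D3, more genes differed: 11.7% rose and 14.7% fell in siPRMT1, and 12.5% rose and 15.2% fell in siPRMT8. Of the 32 members, 4 rose and 1 fell in siPRMT1 by limma (12.5% and 3.12%). In siPRMT8, 4 rose and none fell (12.5% and 0%). An unadjusted p below 0.05 was found for 8 members in siPRMT1 and 10 in siPRMT8, beside 5950 and 5842 of the 14953 genes. The shares of members that rose were near those of all genes.

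The members that rose in siPRMT8 were Ifit1 by 0.67 (SE 0.14, adjusted p 0.0043), Ifit3 by 0.64 (SE 0.20, adjusted p 0.0355), Ddx58 by 0.39 (SE 0.07, adjusted p 0.00234) and Eif2ak2 by 0.28 (SE 0.09, adjusted p 0.0372). Eif2ak2 is PKR, the kinase that halts translation on double-stranded RNA, and Ifit3 is a partner of Ifit1; the Ifit3 probe set may also read its near copy Ifit3b. All 4 hold the ISRE word, as do 14 of the 29 tested members with a promoter. The 14 with the word and the 15 without it both had a median difference of 0.09 in this comparison. Ifit3 was at 5.99, 6.66 and 6.26 in siPRMT8 and 5.53, 5.75 and 5.71 in D3, without overlap, while siSCR spanned 5.75 to 6.48 and siPRMT1 5.68 to 6.24. Ifit1 and Ddx58 kept their call under all 17 alternatives. Ifit3 and Eif2ak2 lost it without any one D3 array or replicate 2 or 3 of siPRMT8 (adjusted p 0.0659 to 0.13 and 0.0704 to 0.139) and with replicate number as a block (0.0577 and 0.0558). Quantile normalisation also ended the Ifit3 call (0.0509), and fitting without the filter on dim genes the Eif2ak2 call (0.0513). In siPRMT1 these 4 genes differed from D3 by 0.09, 0.31, 0.05 and 0.06, and none passed. Against siSCR, Ddx58 passed in siPRMT8, while Ifit1, Ifit3 and Eif2ak2 did not. The mean levels of Ifit1, Ifit3 and Eif2ak2 were 6.64, 5.66 and 6.93 in D3 and 6.99, 6.08 and 7.02 in siSCR. In siPRMT8 these means were 7.31, 6.31 and 7.21.

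The members that rose in siPRMT1 were Irf1 by 0.46 (SE 0.12, adjusted p 0.0181; 0.16 on its second probe set), Irf3, the factor that starts interferon transcription, by 0.31 (SE 0.08, adjusted p 0.0122), and the immunoproteasome subunits Psmb9 by 0.24 (SE 0.07, adjusted p 0.0314) and Psmb10 by 0.32 (SE 0.11, adjusted p 0.0452). None of these 4 holds the ISRE word. The tested members with the word and those without it both had a median difference of 0.03 between siPRMT1 and D3. Irf2 fell by 0.41 (SE 0.09, adjusted p 0.00572). Irf3 was at 7.73, 7.88 and 7.86 in siPRMT1 against 7.42, 7.54 and 7.57 in D3, without overlap. Psmb10 was at 7.85, 7.35 and 7.69 against 7.35, 7.31 and 7.29, replicate 2 of siPRMT1 being level with the highest D3 array to 2 decimals. The calls of Irf1, Psmb9 and Psmb10 were lost under 3, 6 and 8 of 17 alternatives, most of them leaving out 1 array, with adjusted p up to 0.0715, 0.129 and 0.137, and that of Irf3 without replicate 1 of D3 (0.057). In siPRMT8 the same 4 differed from D3 by 0.24, 0.19, 0.20 and 0.16, and Irf2 by -0.25 (adjusted p 0.0518), none passing.

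The control groups were also compared. None of the 32 members passed in siSCR against D3 by limma, and only 0.0602% of all genes rose and 0.0936% fell. An unadjusted p below 0.05 was found for 5 members, beside 1430 of the 14953 genes. Of the members, 23 of 32 members were above 0 (median 0.09, beside 0.01 over all genes) and 13 did not overlap (40.6%, beside 20.3% of all genes), 11 of them higher in siSCR. Oas2 differed most, by 0.49 (SE 0.10, adjusted p 0.0958), then Irf1 by 0.45, Ifit3 by 0.42, Ifitm1 by 0.36, Ifit1 by 0.35 and Psmb10 by 0.34. Irf1 was at 7.76, 7.54 and 7.49 in siSCR and 7.17, 7.09 and 7.18 in D3. Its second probe set differed by -0.01 between these groups, so the probe sets of Irf1 disagree. Of the 4 members that rose in siPRMT1 against D3, Irf1 and Psmb10 differed from siSCR by 0.01 and -0.02, and Irf3 and Psmb9 by 0.24 and 0.14, none passing.

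The receptor subunits varied little: Ifnar1 ranged over 8.65 to 8.86 and Ifnar2 over 8.61 to 8.99 in the 12 arrays. B2m, which every classical MHC class I molecule needs, had the smallest range of the measured members, at 10.92, 10.94 and 10.93 in siPRMT8 and 10.76 to 10.88 in the other 9 arrays. Its siPRMT8 values were above all others, by 0.15 over D3 (adjusted p 0.0535) and 0.10 over siSCR (adjusted p 0.188). Psmb8, the remaining immunoproteasome subunit, ranged over 5.34 to 5.64. Its groups overlapped except siPRMT1, which lay just below siSCR, by -0.06 (adjusted p 0.645). In all, 13 of the 32 members passed in at least 1 of the 6 comparisons. The matching share of all genes was not counted, so 13 is not read as many or few. In single comparisons 0.154% to 27.7% of all genes passed. The 19 members that passed in none included Stat2, Irf5, Irf7, Irf8, Irf9, Ifih1 (the RNA sensor MDA5) and Oas1a. Among them were also Oasl2, Ifi35, Bst2 (tetherin, which holds budding virus on the cell) and Gbp3.

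Of the dim members, Mx2, a dynamin-like antiviral GTPase, was at 5.65, 5.70 and 5.55 in siPRMT8 and 5.03 to 5.48 in the other 9 arrays. In a limma fit without the filter on dim genes it was 0.49 above siSCR (SE 0.11, adjusted p 0.00968), 0.45 above D3 (adjusted p 0.0114) and -0.39 in siPRMT1 against siPRMT8 (adjusted p 0.252). Dhx58, Ifit2, Mx1 and Rsad2 passed in none of the 6 comparisons of that fit.

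The rest of the pathway was read from wider lists of genes. In siPRMT1 against siPRMT8 none of the tested genes of these lists passed by limma. They were 5 interferon ligands, 14 genes of the receptor and JAK-STAT list, 15 nucleic acid sensing genes and 37 further interferon-stimulated genes. The others were 20 antigen processing genes and 5 MHC class II genes. Against siSCR, the 14 tested genes of the receptor and JAK-STAT list had 0 higher and 5 lower in siPRMT1. They had 1 higher and 5 lower in siPRMT8. All genes had 7.18% higher and 11.6% lower in siPRMT1, and 10.7% and 13.2% in siPRMT8. That list also holds the IRF2-binding proteins Irf2bp1 and Irf2bp2. Irf2bp2 was 1 of the 5 lower genes in each knockdown (-0.33 and -0.38). The 37 further interferon-stimulated genes had 1 higher and 4 lower in siPRMT1, and 4 higher and 5 lower in siPRMT8. Trim21, an antibody receptor in the cytosol, rose in both (0.28 and 0.47), and Irgm1, an interferon-induced GTPase of autophagy, rose in siPRMT8 (0.63). Ifi27 and Lgals3bp fell in both, by 0.89 and 0.69 in siPRMT1 and by 0.54 and 0.66 in siPRMT8. The 20 antigen processing genes had 0 higher and 1 lower in siPRMT1 and 2 higher and 1 lower in siPRMT8. The gene lower in both was Mr1 (-0.72 and -0.66), an MHC class I-like molecule that presents vitamin metabolites, and those higher in siPRMT8 were the standard proteasome subunits Psmb7 (0.29) and Psmb6 (0.18). No tested ligand, sensing or MHC class II gene passed against siSCR in either knockdown. Only 5 of the 15 measured ligands were tested, the others being dim. Among the dim ones, Ifnk was at 5.51, 5.57 and 5.47 in siPRMT8 and 4.77 to 5.09 in the other arrays. Fitted without the filter, it was 0.58 above siSCR in siPRMT8 (SE 0.08). The other dim ligands differed there by -0.34 to 0.12. Markers of the main cell types moved beside these counts. Against siSCR, 13 of 18 neuronal markers fell and 0 rose in siPRMT1, and 11 fell and 1 (Nefm, by 1.08) rose in siPRMT8. Of 9 tested astrocyte markers, 8 fell and 1 rose in siPRMT1, and 7 fell and 1 rose in siPRMT8. Of 11 neural progenitor markers, 1 rose and 3 fell in siPRMT1, and 4 rose and 1 fell in siPRMT8. The part of these marker differences in the member values was not tested.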

How the data were processed

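Levels came from 12 one-colour Affymetrix arrays, labelled with the WT Expression kit per the labels' protocols. The authors deposited log2 values for 35556 probe sets; how these were background-corrected, summarised and normalised is not given in the sources used here. Array medians differed by at most 0.023. Of the probe sets, 21789 had 1 gene symbol, 1621 several and 12146 none; 21698 symbols were updated by gene ID (RefSeq, GRCm38.p6), giving 19938 genes. Genes in the lowest 25% by mean (below 5.43) were left out, leaving 14953.

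Group means over all 12 arrays were fitted with limma 3.58.1 (R 4.3.3; lmFit, eBayes, Benjamini-Hochberg over all genes, threshold 0.05). Differences are log2, first group minus second. The members and lists were chosen with earlier results of these data known. Every measured member may be named; array values are given for members passing in siPRMT1 against siPRMT8, the 3 largest differences each way there, and members passing alike in both knockdowns against siSCR, and others were added where a result turns on them. In the wider lists, at most 2 genes that passed are named each way per comparison, by size. Ifnk, Irf2bp1 and Irf2bp2 were added. The fit was first tested on simulated data. Deviations from the group means correlated at 0.107 to 0.194 in same-numbered arrays of siSCR and D3, and at -0.231 to 0.107 in differently numbered ones. Same-numbered arrays of siPRMT1 and siPRMT8 gave -0.416, -0.564 and 0.042. Those of D3 and siPRMT1 (0.29, 0.267 and -0.035) and of siSCR and siPRMT8 (0.194, 0.16 and -0.141) were mixed. The numbers were used as a block only as an alternative.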

Additional observations from a re-analysis of the deposited data

How the results depend on the processing

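Counts of members that passed are given here where they moved by more than 1.5 times. Those with 1 array left out and with the replicate block are given as well. With array weights (whose estimate stopped short of its tolerance) the counts were 6 for siPRMT1 against siPRMT8 (7% of all genes passed), 6 for siPRMT1 and 10 for siPRMT8 against siSCR (37% and 38.1%), 3 for siSCR against D3 (1.87%), and 10 for siPRMT1 and 12 for siPRMT8 against D3 (44.1% and 44%). With replicate 1 of siSCR and replicate 2 of siPRMT1 both left out they were 8 for siPRMT1 against siPRMT8 (12.7%), 5 for siPRMT1 against siSCR (34%), 1 for siSCR against D3 (1.02%) and 13 for siPRMT8 against D3 (40.9%). Fits on only the 2 groups gave 1 for siPRMT1 against siSCR (2.39%), 3 for siPRMT1 against D3 (22.1%) and 12 for siPRMT8 against D3 (40.1%), and quantile normalisation gave 4 for siPRMT1 against siSCR (20.8%). Leaving out 1 array at a time gave 0 to 6 for siPRMT1 against siPRMT8 (0.0134% to 5.76% of all genes). Against siSCR it gave 1 to 5 for siPRMT1 (8.81% to 25.2%) and 2 to 5 for siPRMT8 (12.1% to 27.5%). Against D3 it gave 2 to 5 for siPRMT1 (17.7% to 31%) and 2 to 4 for siPRMT8 (18.3% to 22.5%). With the replicate block no count moved by more than 1.5 times. The counts were then 0, 2 and 5 for the first 3 comparisons (0.0936%, 16.8% and 21.9% of all genes). They were 0 for siSCR against D3 (0.1%), 5 for siPRMT1 against D3 (24.1%) and 3 for siPRMT8 against D3 (25.5%). Irf2 and Ifitm1 lost their siPRMT8 call against siSCR, and Ifit3 and Eif2ak2 theirs against D3. The difference of Ifitm1 between the knockdowns ran from -0.024 to 0.504 with 1 array left out, below 0 without replicate 1 of siPRMT1 and highest without replicate 2; of the 27 member differences followed through the alternatives, no other changed sign. The member medians crossed 0 for siPRMT1 against siPRMT8 (-0.049 to 0.022) and for siPRMT1 (-0.075 to 0.02) and siPRMT8 (-0.034 to 0.091) against siSCR, and for siPRMT1 against D3 (-0.002 to 0.096). The cause of these changes was not tested, beyond the fewer arrays left in some. With 3 arrays a group, the number of arrays limits the precision.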

Other observations

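Irgm1 and Socs3, from the wider interferon lists, differed more from D3 in siPRMT8 than any tested member did. Irgm1 was at 8.57, 8.46 and 8.77 in siPRMT8, 7.75, 7.99 and 8.12 in siPRMT1, 8.16, 7.85 and 7.92 in siSCR and 7.30, 7.71 and 7.14 in D3. It was 1.22 above D3 in siPRMT8 (SE 0.15, limma adjusted p 0.000552) and 0.57 above D3 in siPRMT1 (adjusted p 0.0158). The siPRMT8 arrays stood above all others. For Irgm1 the siSCR arrays also lay above every D3 array, by a mean of 0.59, without passing (limma adjusted p 0.206). Measured from siSCR instead, siPRMT1 differed by -0.02 and did not pass, while siPRMT8 was higher by 0.63 and passed. Socs3, the inhibitor of JAK-STAT signalling that STAT3 induces, was at 7.55, 8.06 and 7.40 in siPRMT8, 8.38, 7.37 and 8.10 in siPRMT1, 8.57, 8.91 and 8.88 in siSCR and 8.75, 8.60 and 8.85 in D3. It fell by 1.06 in siPRMT8 (adjusted p 0.00577) and by 0.78 in siPRMT1 (adjusted p 0.0272) against D3. Stat3 itself was at 9.29 to 9.48 in siPRMT8 and 9.42 to 9.61 in siPRMT1, below every control array (9.91 to 10.17).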
